A study of Mus musculus with 12 samples.

Results

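The collapsin response mediator proteins (CRMPs) and 5 neurite genes that are often read with them were followed here in mouse embryonic fibroblasts (MEFs). The 10 genes, out of 37991 in the count files, were Crmp1, Dpysl2, Dpysl3, Dpysl4 and Dpysl5, which encode the CRMPs, and Map1b, Tubb3, Stmn2, Gap43 and Dcx. They were given by name and found through their Ensembl identifiers, and all 10 were in the files. They were chosen by name with measured values of these data in view, and which values is not stated. The differences between the genotypes were taken to be among them. For the 10 genes they are described below with standard errors and without p-values. Counts of these genes past the threshold are given but not read as a test. Primary MEFs of FVB background had been taken from embryos of 13.5 days and were used at passage 3. Wild-type cells were compared with cells from homozygous E2f1 3KR/3KR knock-in mice (3KR), whose E2F1 transcription factor carries arginine in place of the 3 lysines that are acetylated after DNA damage. Cells of each genotype were left untreated or received neocarzinostatin (NCS), a radiomimetic drug that breaks DNA, at 250 ng/ml for 3 h. Each of the 4 groups held 3 samples, and the labels do not say whether these came from separate embryos, so the spread between them may be partly technical. The knock-in line was made in house with a zinc finger nuclease in FVB embryos, and wild-type FVB mice were bought. Embryos came from crosses within each strain, and whether the wild-type cells here came from bought mice or from siblings of the knock-in mice is not stated.

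CRMPs are cytosolic phosphoproteins of neurons. They bind tubulin dimers and pass on the signal of the guidance cue semaphorin 3A, which makes growth cones collapse, and the kinases CDK5 and GSK3 switch their tubulin binding off. Microtubule-associated protein 1B (Map1b), class III beta-tubulin (Tubb3), stathmin 2 (Stmn2), the growth-associated protein 43 (Gap43) and doublecortin (Dcx) build or remodel the cytoskeleton of young neurites. Several of these genes are also expressed outside neurons.

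The libraries held between 33203757 and 45279321 counted reads on genes. E2f1 itself was at 1146 ± 133 normalized counts in untreated wild-type and 1121 ± 9.31 in untreated 3KR MEFs (mean ± SD, n = 3), and a change of codons is not seen in such counts. Wild-type replicate 3 stood apart in both treatments, where counts differed from those of its fellow replicates by 7.57 to 9.37 in chi-square averaged over genes, and all other pairs of replicates by 2.03 to 2.34. Where leaving out both libraries changed the call of one of the 10 genes, and for the genotype difference of Map1b, the value without them is given too. Xist, made by the inactive X chromosome, was at 32.3 to 62.5 normalized counts in the wild-type and at 30590 to 35635 in the 3KR libraries, and the Y-linked Ddx3y showed the reverse, so that sex and genotype cannot be told apart here. Of the 10 genes only Dcx lies on the X chromosome and none lies on the Y. Type I collagen, which defines fibroblasts, was abundant throughout, with Col1a1 at 610542 normalized counts or more in every library.

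Starts of 5 of the 10 genes were used from the RefSeq promoter table (GRCm38.p6), those of Crmp1, Dpysl5, Tubb3, Map1b and Dcx. No start was used for Dpysl2, Dpysl3, Dpysl4, Stmn2 and Gap43, and no search result is given for their promoters. The motif results below therefore do not cover Dpysl3, Stmn2 and Gap43, which were also lower in 3KR cells. The 4 below are shown because their genes were lower in 3KR cells and because E2F1 is a factor that binds promoters. Each is the stretch ahead of the first annotated exon, on the strand of the gene, with capitals for the GC box (GGGCGG on either strand) and the TATA box (TATAAA on either strand).
Crmp1, chr5:37241808-37241939, plus strand: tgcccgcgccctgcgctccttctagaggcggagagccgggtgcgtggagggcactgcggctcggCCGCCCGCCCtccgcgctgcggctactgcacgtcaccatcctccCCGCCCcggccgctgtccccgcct
Dpysl5, chr5:30711314-30711563, plus strand: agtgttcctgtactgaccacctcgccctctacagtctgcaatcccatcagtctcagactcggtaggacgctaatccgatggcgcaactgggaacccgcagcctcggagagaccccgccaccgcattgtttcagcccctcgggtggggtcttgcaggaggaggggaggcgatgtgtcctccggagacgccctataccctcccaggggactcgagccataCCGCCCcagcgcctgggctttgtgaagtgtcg
Tubb3, chr8:123411303-123411423, plus strand: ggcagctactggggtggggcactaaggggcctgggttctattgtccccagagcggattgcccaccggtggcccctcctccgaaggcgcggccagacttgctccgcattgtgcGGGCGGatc
Map1b, chr13:99516603-99516852, minus strand: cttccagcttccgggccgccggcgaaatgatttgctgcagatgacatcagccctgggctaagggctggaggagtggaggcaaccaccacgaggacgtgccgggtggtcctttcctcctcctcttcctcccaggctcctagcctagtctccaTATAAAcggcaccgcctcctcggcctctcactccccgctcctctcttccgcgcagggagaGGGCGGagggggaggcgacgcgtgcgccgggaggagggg
The stretch shown for Crmp1 holds 3 GC boxes, of which the first 2 overlap, and the full 250 bases ahead of this start hold 5, some of them inside an exon and so not shown. Dpysl5 and Map1b have 1 GC box each, and Tubb3 has 2 in 250 bases with 1 in the part shown. A GC box was found in 32.7% of the 32851 promoter windows of the table. Map1b alone of these 4 has a TATA box, which 12.4% of all windows hold. The E2F-like letters TTTNNCGC, searched on both strands, occurred in 4.28% of all windows and in the 250 bases ahead of none of the starts listed for these 5 genes. That says only that these letters are not in these windows. At the starts shown, the GC content of the 250 bases was 75.6% for Crmp1, 62.8% for Dpysl5, 68.0% for Tubb3 and 66.4% for Map1b, beside a median of 52.4% over all windows. A second listed start of Crmp1 had 59.6% GC and 2 GC boxes in its 250 bases. These bases lie inside the annotated gene and are not shown.

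Per exon length, Dpysl3 was by far the most abundant of the 10 genes. Its mean over 12 samples was 73.4 RPKM, which is reads per kilobase of exon scaled to library size. Tubb3 followed with 15.9 and Gap43 with 14.9 RPKM, then Map1b with 9.81, Stmn2 with 7.80 and Dpysl2 with 4.57 RPKM. Crmp1 and Dpysl4 had nearly the same mean, 1.61 and 1.60 RPKM, whereas Dpysl5 was at 0.0812 and Dcx at 0.00249 RPKM. Some neighbours in this order did not differ beyond their spread. In untreated wild-type cells Tubb3 was at 22.0 ± 2.24 and Gap43 at 19.7 ± 0.763 RPKM, and after NCS their order turned, with 19.7 ± 0.469 and 22.0 ± 1.98 RPKM. Map1b at 10.3 ± 1.03 and Stmn2 at 9.79 ± 0.585 RPKM also lay within their spread in untreated wild-type cells. Crmp1 and Dpysl4 shared a mean only across the genotypes: in untreated wild-type cells Crmp1 was at 3.02 ± 0.195 and Dpysl4 at 1.57 ± 0.0254 RPKM, and in untreated 3KR cells Crmp1 was at 0.275 ± 0.0463 and Dpysl4 at 1.63 ± 0.164 RPKM.

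**Figure D1:**
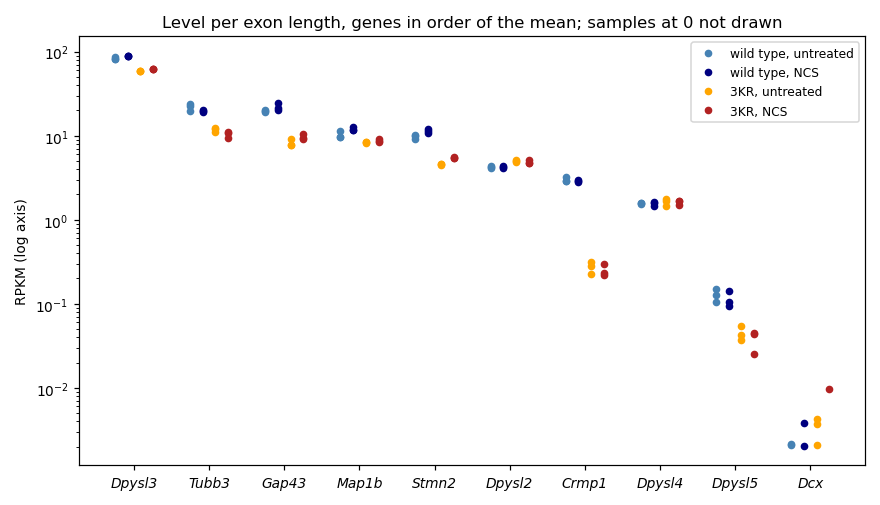
Level per exon length (RPKM, log axis) of the 10 genes in order of their mean, 1 point per sample, coloured by group; samples with 0 reads are not drawn. Dpysl3 lies at 58.9 RPKM or more in every sample, and the points of Crmp1 fall from above those of Dpysl4 in the wild-type groups to below them in the 3KR groups.

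Crmp1 (ENSMUSG00000029121, chromosome 5) showed the widest gap between the genotypes. In untreated wild-type replicates 1 to 3 it was at 775, 784 and 869 normalized counts, and after NCS at 793, 785 and 767. In untreated 3KR cells it was at 85.7, 75.9 and 60.9, and after NCS at 61.8, 80.5 and 58.9 normalized counts. Every 3KR library was thus far below every wild-type library, whatever the treatment. Between untreated groups Crmp1 was 11.0-fold lower in 3KR cells (log2 fold change -3.46, SE 0.10), and after NCS 11.7-fold lower (log2 fold change -3.55, SE 0.11). Crmp1 was detected in 3KR cells, with 57 to 85 raw reads per library. The gene overlaps Evc on the opposite strand, although no exons of the pair overlap.

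Dpysl3 (ENSMUSG00000024501, chromosome 18), the CRMP that most reads of the family came from, was at 20503, 20728 and 21916 normalized counts in untreated wild-type cells and at 14956, 14892 and 14929 in untreated 3KR cells. After NCS it was at 22391, 22134 and 22684 in wild-type and at 15816, 15704.5 and 15501 normalized counts in 3KR cells. No 3KR library reached a wild-type one, but the gap was small beside that of Crmp1, with log2 fold changes of -0.50 (SE 0.029) in untreated and -0.52 (SE 0.029) in NCS-treated cells. Dpysl5 (ENSMUSG00000029168, chromosome 5), the most distant relative in the family, was scarce. It was at 35.6, 29.4 and 42.4 normalized counts in untreated wild-type and at 12.1, 10.4 and 15.5 in untreated 3KR cells. After NCS it was at 40.0, 26.7 and 29.9 in wild-type and at 7.09, 12.8 and 12.4 in 3KR cells. The groups were apart by 2.80-fold untreated (log2 fold change -1.49, SE 0.32) and 2.98-fold after NCS (log2 fold change -1.57, SE 0.34), on raw counts of only 7 to 43 per library.

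Dpysl2 and Dpysl4 did not follow their relatives. Dpysl2 (ENSMUSG00000022048, chromosome 14), which encodes CRMP2, the founding tubulin-binding member, was at 707, 748 and 724 normalized counts in untreated wild-type and at 840.5, 889 and 861 in untreated 3KR cells. After NCS it was at 722, 704 and 764 in wild-type and at 810.1, 817 and 887 in 3KR cells. Its 3KR libraries were the higher ones in both treatments, by a log2 fold change of 0.24 (SE 0.056) untreated and 0.20 (SE 0.057) after NCS. Dpysl4 (ENSMUSG00000025478, chromosome 7) was at 352, 362 and 362 normalized counts in untreated wild-type and at 332, 383 and 405 in untreated 3KR cells. After NCS its values were 334, 373 and 366 in wild-type and 377, 387 and 346 in 3KR cells. The groups overlapped in both treatments. The log2 fold change of Dpysl4 was 0.053 (SE 0.082) untreated and 0.046 (SE 0.084) after NCS, with 95% intervals of -0.12 to 0.22 untreated and -0.13 to 0.22 after NCS.

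Summed over the 5 members, the CRMP family was at 92.6 ± 3.31 RPKM in untreated wild-type and 66.0 ± 0.126 RPKM in untreated 3KR cells, and at 97.6 ± 0.952 and 68.9 ± 0.477 RPKM after NCS. Dpysl3 made up 89.5% to 91.0% of the sum in the 4 groups. It also held most of the difference between the genotypes, which was -26.6 RPKM for the family in untreated cells (3KR minus wild type) and -24.6 RPKM for Dpysl3 and -2.74 RPKM for Crmp1 alone. The make-up of the remainder was another one in each genotype. Crmp1 was 3.26% ± 0.0936 of the family in untreated wild-type and 0.417% ± 0.0708 in untreated 3KR cells, while Dpysl2 was 4.56% ± 0.192 and 7.57% ± 0.204 (SD, n = 3).

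**Figure D2:**
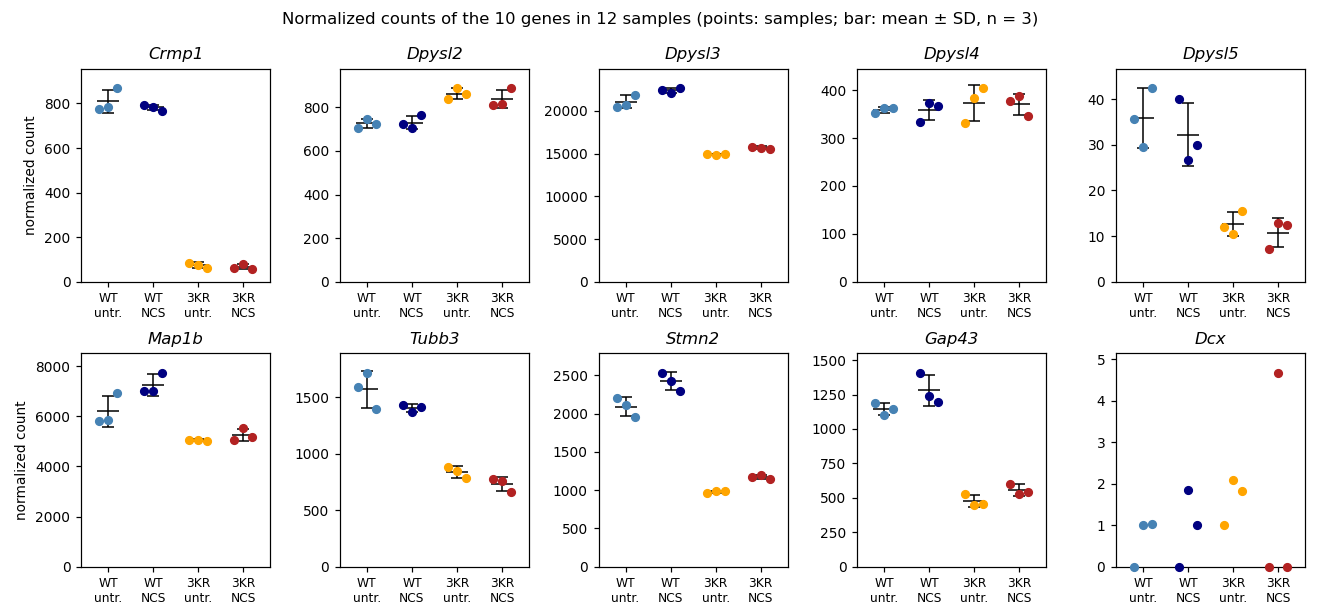
Normalized counts of the 10 genes (linear axes from 0), 1 point per sample in the 4 groups, with the mean ± SD of 3 samples as bars; Dcx has points only. Crmp1 lies at 767 or more in the 6 wild-type libraries and at 85.7 or less in the 6 3KR libraries, whereas Dpysl4 overlaps.

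Among the microtubule genes, Stmn2 (ENSMUSG00000027500, chromosome 3), whose product binds tubulin dimers and destabilizes microtubules, was at 2199, 2117 and 1952 normalized counts in untreated wild-type and at 968, 994 and 984 in untreated 3KR cells. After NCS it was at 2534, 2432 and 2301 in wild-type and at 1171, 1204 and 1146 in 3KR cells. All 3KR libraries were below all wild-type libraries, by 2.14-fold untreated (log2 fold change -1.10, SE 0.050) and 2.06-fold after NCS (log2 fold change -1.05, SE 0.050). Tubb3 (ENSMUSG00000062380, chromosome 8), the tubulin isotype used to stain neurons, was at 1591, 1713 and 1395 normalized counts in untreated wild-type and at 883, 848 and 781 in untreated 3KR cells. After NCS the values were 1432, 1367 and 1408 against 779, 761 and 662. The genotypes again did not overlap, and the log2 fold change was -0.91 (SE 0.068) untreated and -0.93 (SE 0.070) after NCS. Tubulin genes are near-identical paralogs, so their counts depend on how reads shared between them had been assigned, which is not stated.

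Map1b (ENSMUSG00000052727, chromosome 13), which bundles and stabilizes microtubules, showed the smallest of the gaps towards lower values. It was at 5812, 5875 and 6916 normalized counts in untreated wild-type and at 5077, 5045 and 4999 in untreated 3KR cells. After NCS it was at 7016, 6996 and 7738 in wild-type and at 5056, 5523 and 5176 in 3KR cells. Wild-type replicate 3 was the highest library in both treatments, but the groups were also apart without it. The log2 fold change was -0.30 (SE 0.052) untreated and -0.47 (SE 0.052) after NCS, and without both replicate 3 libraries -0.21 and -0.41.

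Gap43 (ENSMUSG00000047261, chromosome 16), a membrane-bound protein of growth cones that acts on actin, was at 1189, 1102 and 1142 normalized counts in untreated wild-type and at 529, 450.3 and 457 in untreated 3KR cells. After NCS it was at 1407, 1239 and 1197 in wild-type and at 604, 527 and 539.7 in 3KR cells. These levels were 2.40-fold lower in untreated 3KR cells (log2 fold change -1.26, SE 0.073) and 2.30-fold lower after NCS (log2 fold change -1.20, SE 0.072). Dcx (ENSMUSG00000031285, chromosome X), a marker of migrating young neurons, was at or near 0. It had 0, 1 and 1 raw reads in untreated wild-type, 0, 2 and 1 in NCS-treated wild-type, 1, 2 and 2 in untreated 3KR and 0, 4 and 0 in NCS-treated 3KR cells. A count of 0 allows up to 3 reads, and 11 of the 12 libraries were within that limit, so no difference in Dcx was detectable at this depth.

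Of the 10 genes, 9 had enough reads to be fitted, and Dcx was under the filter. In untreated cells 7 of the 9 were past the threshold towards lower values in 3KR MEFs, where 23.6% of all 15327 genes tested were, and 1 of 9 towards higher values, where 22.1% were. In either direction 45.7% of all genes were called. After NCS the counts were again 7 and 1 of 9, beside 23.6% and 22.9% of all genes, and 46.5% in either direction. The groups did not overlap for the same 8 genes in both treatments, 7 lower and 1 higher. Over all genes tested they did not overlap for 53.5% untreated, 26.6% lower and 27.0% higher, and for 54.3% after NCS, 27.3% lower and 27.0% higher. Nothing is read from these counts, since the genes were chosen with this contrast known. The median log2 fold change of the 9 was -0.91 in untreated cells, beside -0.00036 for all genes tested, and -0.93 after NCS beside 0.0037. Both counts were the same without the 2 wild-type replicate 3 libraries.

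**Figure D3:**
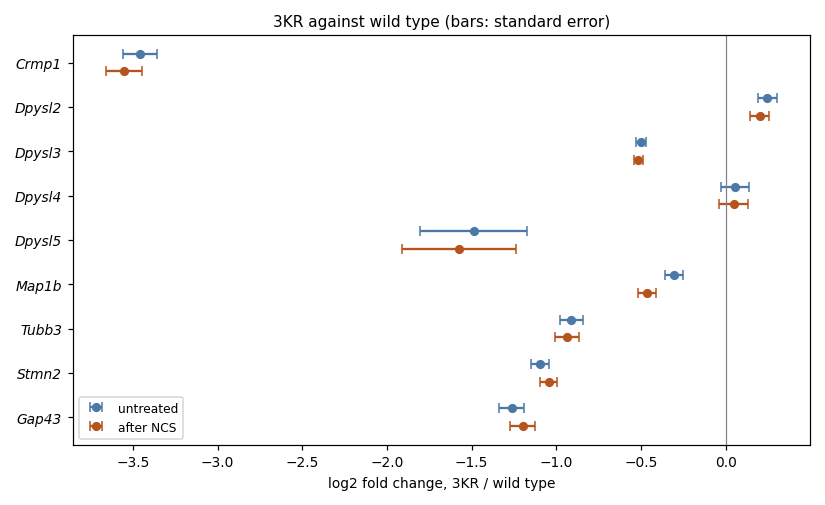
Difference between 3KR and wild-type cells (log2 fold change) of the 9 fitted genes, untreated and after NCS; bars are standard errors. Crmp1 lies at -3.46 and -3.55, Dpysl5 at -1.49 and -1.57, Dpysl2 above 0 and Dpysl4 at 0.053 and 0.046.

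Markers of other cells that a MEF culture can hold also moved with genotype. The 12 Schwann cell markers summed to 234 to 243 CPM (counts scaled to library size) in the wild-type and to 46.0 to 53.1 CPM in the 3KR libraries. In untreated 3KR cells 9 of the 12 were past the threshold towards lower values (edgeR), beside 23.6% of all genes. After NCS 8 were lower and 1 was higher, beside 23.6% and 22.9% of all genes. Ngfr, a neurotrophin receptor of this list, was at 2925 ± 110 against 654 ± 6.38 normalized counts in untreated cells. The 6 skeletal muscle markers, led by Des and Acta1, summed to 137 to 145 against 52.0 to 58.9 CPM. Only 4 of them were tested, and 2 were lower in untreated 3KR cells, beside 23.6% of all genes. Des alone was at 4583 ± 113 against 1589 ± 57.5 normalized counts there. The 10 macrophage markers, led by Lyz2 and Csf1r, summed to 111 to 138 against 197 to 219 CPM. All 10 were higher in untreated 3KR cells, beside 22.1% of all genes. The 10 neuron markers were scarce but also apart, at 4.28 to 5.34 CPM in the wild-type and 2.94 to 3.89 CPM in the 3KR libraries. They were led by Slc17a6, a glutamate transporter that was lower in untreated 3KR cells (log2 fold change -0.55, SE 0.14, edgeR adjusted p = 0.00254), and Slc17a7, which did not pass. The defining Rbfox3 and Gad1 were at 3 reads or fewer in every library. Endothelial markers, led by Kdr and Tek, were at 4.25 to 5.16 CPM without a separation of the genotypes. The fibroblast list, led by Col1a1 and Col1a2, was higher in untreated 3KR cells for 8 of 9 genes, beside 22.1% of all genes, and lower for 1. Its untreated sums were 53170 to 55409 CPM in wild-type and 57835 to 59465 CPM in 3KR libraries. After NCS the sums overlapped, at 55238 to 57533 and 56756 to 58953 CPM. What part these cells had in the levels of the 10 genes was not tested, and in bulk RNA fewer cells of a type cannot be told apart from less RNA per cell.

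The response to NCS was tested, on the reading that it was not among the values that chose the genes, which is not stated. In wild-type cells 3 of the 9 genes rose, where 14.3% of all genes tested did and 26.7% changed in either direction. The NCS libraries were all above the untreated ones for 4 of the 9 genes and all below for 0, beside 18.6% and 16.5% of all genes (35.1% in all). Map1b rose from 6201 ± 620 to 7250 ± 423 normalized counts (log2 fold change 0.22, SE 0.051, edgeR adjusted p = 0.00213), and each NCS library was above each untreated one. Stmn2 rose from 2089 ± 126 to 2422 ± 117 (log2 fold change 0.21, SE 0.047, edgeR adjusted p = 0.00169), again without overlap. Dpysl3 rose from 21049 ± 759 to 22403 ± 275 (log2 fold change 0.086, SE 0.029, edgeR adjusted p = 0.0280), a small shift whose call was lost in 5 of 13 alternatives, with adjusted p-values of up to 0.158. These were the fit on wild-type samples alone and the fits without untreated replicate 1 or 2 or NCS replicate 1 or 3. All 3 rises were also called without both wild-type replicate 3 libraries.

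Gap43 and Tubb3 were near the threshold in wild-type cells. Gap43 was at 1144 ± 43.6 untreated and 1281 ± 111 after NCS (log2 fold change 0.16, SE 0.066, edgeR adjusted p = 0.0814). Tubb3 was at 1567 ± 161 and 1402 ± 32.7 (log2 fold change -0.16, SE 0.065, edgeR adjusted p = 0.0636). Neither passed here. The replicate numbers were taken to pair the wild-type libraries, which is not settled for replicates 1 and 2. In a fit blocked on that number both were called, Gap43 upwards with an adjusted p of 0.0126 and Tubb3 downwards with 0.0105. Without both replicate 3 libraries they were called as well, with log2 fold changes of 0.20 and -0.24 and adjusted p-values of 0.0130 and 4.90e-04. Other alternatives weakened both without a change of sign, Gap43 to 0.084 without NCS replicate 1 (adjusted p = 0.423) and Tubb3 to -0.098 without untreated replicate 2 (adjusted p = 0.336). Gap43 passed in 3 and Tubb3 in 5 of 13 alternatives. Lower values towards NCS passed for 0 of the 9 genes by edgeR and by DESeq2, and for 1, Tubb3, at an unadjusted p under 0.05. Among all genes tested 12.4% fell.

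In 3KR cells 2 of the 9 genes rose after NCS, beside 15.8% of all genes tested and 30.8% changed in either direction. The groups did not overlap upwards for 2 genes and downwards for 1, beside 24.0% and 23.6% of all genes (47.6% in all). Stmn2 rose from 982 ± 13.0 to 1173 ± 29.4 normalized counts (log2 fold change 0.26, SE 0.053, edgeR adjusted p = 6.35e-04), and the 3 NCS libraries were all above the 3 untreated ones. Gap43 rose from 479 ± 43.6 to 557 ± 40.9 (log2 fold change 0.22, SE 0.080, edgeR adjusted p = 0.0371), although its lowest NCS library, at 527, was just under its highest untreated one, at 529. That call was lost without untreated replicate 2 or 3 and without NCS replicate 1 or 3, with adjusted p-values of 0.0542 to 0.211. Tubb3 was at 837 ± 51.7 and 734 ± 63.0 without overlap (log2 fold change -0.19, SE 0.074, edgeR adjusted p = 0.0571), and Dpysl3 at 14926 ± 32.3 and 15674 ± 159, also without overlap (log2 fold change 0.072, SE 0.029, edgeR adjusted p = 0.0608). Towards lower values again 0 of 9 passed by edgeR and by DESeq2, and 1, Tubb3, at an unadjusted p under 0.05, beside 15.0% of all genes. Under alternatives Tubb3 was called in 5 of 12, among them the fit on 3KR samples alone (adjusted p = 0.00743), and was furthest from it without NCS replicate 3 (log2 fold change -0.12, adjusted p = 0.302). Dpysl3 was called in 4 of 12, with adjusted p-values of 6.86e-04 on 3KR samples alone to 0.176. Map1b was at 5040 ± 39.2 and 5252 ± 243, with a log2 fold change of 0.061 and a 95% interval of -0.048 to 0.17.

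Crmp1, Dpysl2, Dpysl4 and Dpysl5 passed in neither genotype. The 95% interval of the Crmp1 response ran from -0.20 to 0.097 in wild-type and from -0.47 to 0.17 in 3KR cells on the log2 scale. Dpysl2 had intervals of -0.11 to 0.12 and -0.16 to 0.075, and Dpysl4 of -0.18 to 0.17 and -0.18 to 0.16. For the scarce Dpysl5 they spanned -0.73 to 0.40 and -1.06 to 0.56, so that even sizeable shifts were not detectable at its depth. Dcx, which was not fitted, gave p = 1.0 in an exact two-sided permutation test within each genotype, where 3 against 3 samples cannot go below 0.10.

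**Figure D4:**
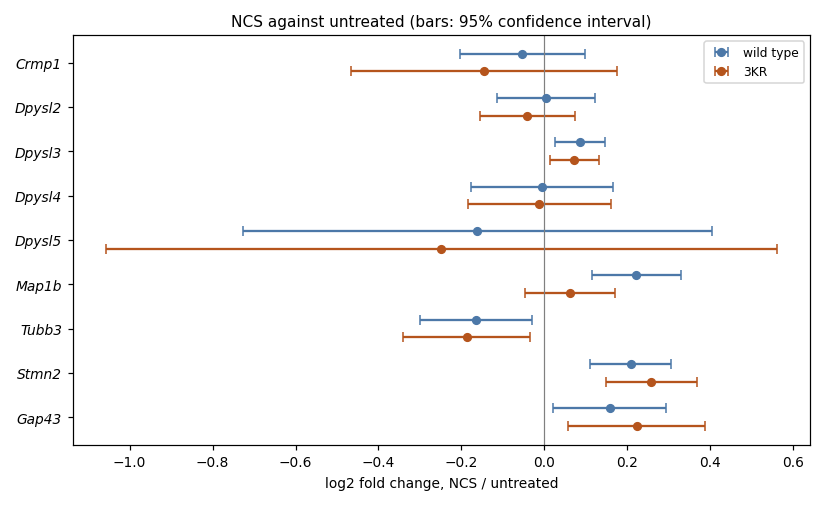
Log2 fold change of NCS against untreated for the 9 fitted genes in wild-type and 3KR MEFs; bars are 95% confidence intervals. Stmn2 lies above 0 in both genotypes (0.21 and 0.26), Map1b clears 0 in wild-type cells only at 0.22, and the intervals of both genotypes overlap for every gene.

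Whether the NCS response itself differed between the genotypes was tested as the difference of the 2 responses. It passed for 0 of the 9 genes by edgeR and by DESeq2, and for 1 at an unadjusted p under 0.05, where 3.73% of all genes tested passed, 1.86% upwards and 1.87% downwards. That gene was Map1b, whose response was smaller in 3KR cells by 0.16 on the log2 scale (difference -0.16, SE 0.073, edgeR adjusted p = 0.271). The outcome for Map1b depended on the samples and on the fit, and it passed in 4 of 18 alternatives. Without the untreated library of wild-type replicate 3 the difference was -0.25 with an adjusted p of 0.00240. Without both replicate 3 libraries it was -0.20 with 5.54e-05. It also passed with the replicate number as a block (adjusted p = 0.00652) and with no filter on low counts (0.0474). This block, also used for counts of genes below, pairs libraries in both genotypes, although the 3KR numbers were not taken to pair them. For Stmn2 the difference was 0.050, with a 95% interval of -0.097 to 0.20, and for Gap43 0.065 with -0.15 to 0.28.

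The wider machinery around these genes was read from 5 lists with 71 genes, of which 67 were tested. In untreated 3KR cells 42 of the 67 were lower and 5 higher (edgeR adjusted p under 0.05), and after NCS 38 were lower and 5 higher. Of all genes tested 23.6% were lower in each treatment, and 22.1% untreated and 22.9% after NCS were higher, which is the share to read these and the following counts against. The median log2 fold change of the lists was -0.19 untreated and -0.20 after NCS, beside the -0.00036 and 0.0037 of all genes tested. These lists were also drawn up with earlier results of these data known, so their genotype p-values are descriptive. Genes named from them in the next paragraphs had the lowest p of their list between untreated genotypes or for NCS in wild-type cells. They are therefore not typical of their lists.

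Tubulin isotypes were lower in untreated 3KR cells for 8 of 12 genes tested, and the other 4 did not pass. Tuba4a was at 1254 ± 31.4 in wild-type and 854 ± 47.1 normalized counts in 3KR cells (log2 fold change -0.56, SE 0.051, edgeR adjusted p = 2.36e-09), and Tubb6 at 16566 ± 590 and 14005 ± 139 (-0.25, SE 0.031, adjusted p = 3.97e-07). Microtubule-associated proteins and stathmins were lower for 7 and higher for 3 of 19. Map6, which keeps microtubules stable in the cold, was lower, with a log2 fold change of -0.47 (SE 0.032) and 5089.6 ± 71.8 against 3687 ± 65.9 normalized counts (adjusted p = 1.41e-11). Dclk1, a kinase related to doublecortin, went the other way by 0.45 (SE 0.040), with 2492 ± 130 against 3424 ± 86.1 (adjusted p = 1.65e-09).

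Intermediate filament proteins of neural cells showed the deepest median of the 5 lists, -1.16 over 6 tested genes, of which 5 were lower. The neurofilament gene Nefm was at 824 ± 23.1 in untreated wild-type and 103 ± 14.7 normalized counts in untreated 3KR cells, 8.06-fold lower (log2 fold change -3.01, SE 0.091, edgeR adjusted p = 3.13e-18). Nes, which encodes the progenitor filament nestin, was 2.82-fold lower, at 30212 ± 1843 and 10756 ± 171 (edgeR adjusted p = 1.09e-19). Vim, the vimentin gene of mesenchymal cells, was at 147196 ± 1206 and 132273 ± 2190, which is a log2 fold change of -0.16 (SE 0.022, adjusted p = 1.99e-06).

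Kinases and partners of the CRMPs and receptors for semaphorin 3A were lower in untreated 3KR cells for 16 of 20 genes, and the other 4 did not pass. Plxna2, a plexin that carries the semaphorin signal into the cell, was lower by 1.88-fold (log2 fold change -0.91, SE 0.040, edgeR adjusted p = 3.87e-15), and Nrp1, which binds semaphorin 3A, by 1.64-fold (-0.71, SE 0.036, adjusted p = 6.02e-14). Growth cone actin and membrane proteins split into 6 lower and 2 higher of 10. Dbn1, the actin-binding drebrin, was lower by a log2 fold change of -0.59 (SE 0.031, adjusted p = 8.86e-14), and Marcksl1, a small relative of the protein kinase C substrate MARCKS, by one of -0.58 (SE 0.036, adjusted p = 3.83e-12).

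**Figure D5:**
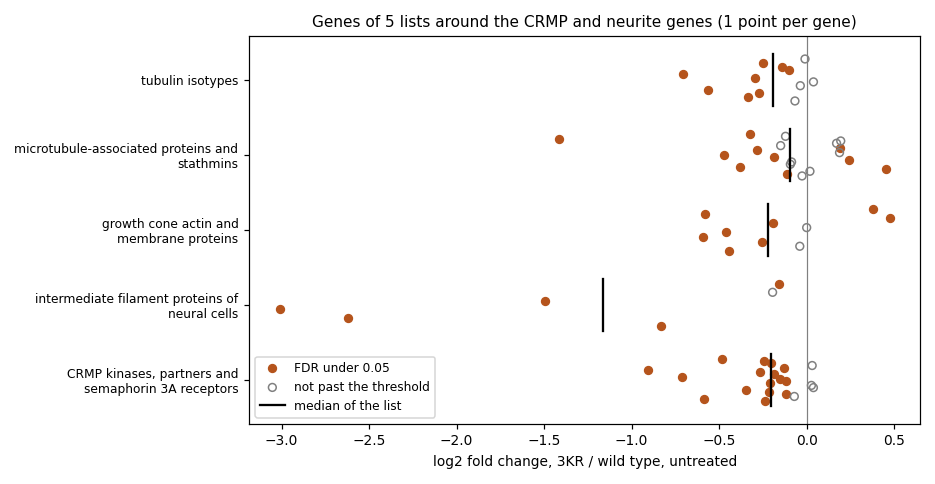
Difference between untreated 3KR and wild-type cells (log2 fold change) for the tested genes of 5 lists, 1 point per gene; filled points passed an FDR of 0.05, open ones did not, and the black line is the median of the list. The intermediate filament list has the lowest median, -1.16, and the other 4 medians lie between -0.22 and -0.093.

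The 5 lists were also read for NCS. In wild-type cells 21 of the 67 genes rose and 7 fell, where 14.3% and 12.4% of all genes did, and in 3KR cells 20 rose and 7 fell, beside 15.8% and 15.0%. In the fit on wild-type samples alone the wild-type count came to 15 genes, 11 up and 4 down. The difference of the responses passed for 5 of the 67 genes, beside 3.73% of all genes. The count was 14 with the replicate block, 19 without both wild-type replicate 3 libraries, and 1 without wild-type NCS replicate 1 or 2. Tubulin isotypes rose for 7 of 12 in each genotype, with Tubb4b going from 11309 ± 308 to 12994 ± 663 normalized counts in wild-type cells (log2 fold change 0.20, SE 0.035, edgeR adjusted p = 1.39e-04). Plxna1 rose by 0.36 (SE 0.039, adjusted p = 2.16e-07) in wild-type and by 0.46 (SE 0.039, adjusted p = 3.78e-09) in 3KR cells. Ckap5, which speeds microtubule growth, fell by 0.34 (SE 0.033, adjusted p = 3.18e-08) and by 0.38 (SE 0.033, adjusted p = 4.12e-09). Marcksl1 rose in both, by 0.30 (SE 0.036, adjusted p = 9.11e-07) and 0.25 (SE 0.037, adjusted p = 1.17e-05).

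Over all 12 samples the points of any correlation share the split between the genotypes. As a description, the log2 CPM of Crmp1 had a Pearson r of 0.98 with Dpysl3, 0.97 with Tubb3 and Gap43, and -0.93 with Dpysl2. Genes most like Crmp1 in this measure were Cadm4 and Sox10, with r of 0.998 and 0.997, but 492 of 11758 genes compared had an r of 0.95 or more with it. Sox10 belongs to the Schwann cell list, and its log2 fold change in untreated 3KR cells was -2.39. Most like Dpysl3 were Dmpk and Pea15a, and most like Stmn2 were Msx2 and Kcnt2. Esam and Mpzl1 came first for Gap43, Dnajc10 and Aldh1a3 for Tubb3, Otud7b and Map7d1 for Map1b, and Ddhd2 and Zfp536 for Dpysl5. For Dpysl4 the highest r was 0.82, and 0 of 11758 genes reached 0.95.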

How the data were processed

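Raw read counts per Ensembl gene were deposited by the authors, 1 file per sample, neither normalized nor filtered. The submitters' processing notes name TopHat, HTSeq, DESeq and mm9, without versions. The library kit was stranded, and whether counting used the strand is not given in the sources used here. Symbols came from GENCODE M21 (GRCm38), which held 32919 of 37991 identifiers. Groups came from the sample labels. Counts were fitted with edgeR 4.0.16 (R 4.3.3): filterByExpr, TMM, 1 coefficient per group over 12 samples, the quasi-likelihood F test and Benjamini-Hochberg adjustment over 15327 genes, called at 0.05. For display, counts were divided by DESeq2 1.42.0 size factors (normalized counts), and RPKM uses TMM and the union of exon lengths. Fits were tested on simulated data with the same spread for every gene, few changed genes and no outlying library. The data here differ from that in each respect, so the simulation does not cover them. Alternatives were other scaling, filters, tests and samples, a replicate block, and single libraries left out. Leaving out both wild-type replicate 3 libraries was chosen after seeing the data. Deviations of same-numbered untreated and NCS libraries correlated by 0.144 to 0.339 in wild-type cells and by 0.00652 to 0.0501 in 3KR cells. In wild-type cells every pair was over 0.1 and the numbers were taken to pair the libraries, and in 3KR cells they were not. The main fit did not use this pairing.

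The members and lists were chosen with earlier results of these data known. Named genes were the members, E2f1, Xist and Ddx3y, the 2 genes of each of the 5 lists with the lowest p between untreated genotypes and the 1 with the lowest p for NCS in wild-type cells, the 2 most abundant of each marker list, and the 2 genes most like each fitted member by Pearson r of log2 CPM (prior count 2, mean log2 CPM of at least 1). Those most like Dpysl2 and Dpysl4 and 1 of the marker genes are not reported here.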

Additional observations from a re-analysis of the deposited data

Results flagged for a closer look

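Of the lists around the members, 5 genes were set apart because their response to NCS differed between the genotypes in the test of that difference (edgeR). Tuba4a rose in both genotypes, by 0.23 in wild-type and 0.52 in 3KR cells on the log2 scale, a difference of 0.29 (SE 0.070, adjusted p = 0.0201). For Map6 the log2 fold change was -0.010 in wild-type and 0.16 in 3KR cells, a difference of 0.17 (SE 0.045, adjusted p = 0.0307). Dbn1 fell by 0.087 in wild-type and rose by 0.084 in 3KR cells, a difference of 0.17 (SE 0.043, adjusted p = 0.0249). Marcks and Tuba1a fall outside the rule for named genes and are given after their values were seen. Marcks, a membrane protein that binds actin, fell by 0.14 in wild-type and by 0.47 in 3KR cells, a difference of -0.33 (SE 0.045, adjusted p = 9.89e-05). Tuba1a rose by 0.33 in wild-type cells and had a log2 fold change of -0.028 in 3KR cells, a difference of -0.35 (SE 0.10, adjusted p = 0.0488), and as a tubulin with near-identical paralogs its count is uncertain. Over 18 alternatives Marcks passed in 18, Tuba4a in 14, Dbn1 in 12, and Map6 and Tuba1a in 9 each. The highest adjusted p over them was 0.175 for Tuba1a, 0.0976 for Map6, 0.0941 for Dbn1, 0.0873 for Tuba4a and 0.00100 for Marcks.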

How the results depend on the processing

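Of 616 log2 fold changes of the members recomputed under an alternative, 553 kept direction and side of the threshold, 21 were newly called, 9 lost their call and 33 turned in sign, and none of these 33 passed in either setting. Of 200 group means of normalized counts, 7 moved by more than the replicate SD. The 616 values include the genotype differences, which were taken to have chosen the genes. Among these only that of Dpysl4 in untreated cells turned. All calls gained or lost were in the NCS responses or their difference, so the total makes those look steadier than they were. With at least 10 counts in every sample the wild-type NCS response of Dpysl2 was -0.010 (-0.011 in the fit on wild-type samples alone), and the difference of responses was 0.0048 for Dpysl3 and 0.012 for Dpysl4. Without both wild-type replicate 3 libraries the wild-type response was 0.013 for Crmp1, -0.031 for Dpysl2 and 0.018 for Dpysl5, and the difference of responses 0.052 for Tubb3. With single libraries left out, the difference between untreated genotypes ran from -0.012 to 0.13 for Dpysl4. The wild-type NCS response then ran from -0.084 to 0.00069 for Crmp1, from -0.031 to 0.029 for Dpysl2 and from -0.039 to 0.039 for Dpysl4, and the 3KR response of Dpysl4 from -0.089 to 0.053. The difference of responses ran from -0.23 to 0.025 for Crmp1, -0.045 to 0.0045 for Dpysl3, -0.084 to 0.059 for Dpysl4, -0.22 to 0.15 for Dpysl5 and -0.089 to 0.051 for Tubb3. Pathway genes called for NCS in wild-type cells came to 15 in the fit on wild-type samples alone. Genes called for the difference of responses numbered 1379 with the replicate block, 1842 without both replicate 3 libraries and 345 to 1159 with 1 library left out, against 572, and pathway genes 14, 19 and 1 to 10. In 3KR cells, whose numbers do not pair the libraries, the block gave adjusted p-values of 0.0105 for Tubb3 and 0.00847 for Dpysl3, and Dpysl3 reached 0.0446 by DESeq2. The causes were not tested. Dpysl5, with 7 to 43 reads per library, and Dcx are limited by depth.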
